A study of Arabidopsis thaliana with 44 samples.

Results

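Callus and root of Arabidopsis thaliana were compared on Agilent oligonucleotide microarrays, 4 of the 44 samples of the series. Both dye channels of each microarray carried the same tissue (a self-self microarray), and each tissue was hybridized to 2 microarrays. The members of the comparison were chosen by tissue and platform alone: the 2 callus and the 2 root self-self microarrays. The series as a whole set Agilent microarrays beside other expression platforms on RNA of several Arabidopsis tissues. Callus was actively growing tissue, and root came from untreated plants of 21 days. The plants were wild type, and the ecotype and the callus medium were not given in the sources used here. Total RNA was isolated with TRIzol, and replicates 1 and 2 were technical replicates of 1 RNA sample per tissue. Every p-value below therefore measures technical spread only, and neither the variation between plants nor that between callus cultures entered it.

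Callus is a mass of dividing cells with no organs, usually kept on medium with auxin and cytokinin. In Arabidopsis it commonly arises along a lateral root programme and keeps the expression of many root meristem regulators, whatever organ it was made from. The mature root of a young plant is built of differentiated tissue: an epidermis with root hairs that take up ions and water, an endodermis sealed by Casparian strips and suberin, and a central cylinder of xylem and phloem. Arabidopsis also makes glucosinolates, sulfur-rich defence compounds built from methionine (the aliphatic branch) or tryptophan (the indole branch). In RNA of a whole tissue, fewer cells of a type and less RNA per cell cannot be told apart.

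Of 21500 gene probes, 19499 were tested. A level below is the log2 of the mean of both channels, relative to the 75th percentile of the gene probes on that microarray, and a difference is callus minus root on that log2 scale. Levels of different genes are not comparable, since each probe has its own response. The 2 callus microarrays correlated at 0.969 over the tested probes and the 2 root microarrays at 0.925, against 0.797 between the tissue means. The median absolute log2 difference was 0.22 between the callus replicates, 0.27 between the root replicates and 0.84 between callus and root. Root replicate 1 stood apart in its green channel. Its log2 red over green correlated at 0.62 with the log2 root over leaf ratio of the 2 microarrays that carried root in red and leaf in green, where the other self-self microarrays reached at most 0.12. The slide barcodes also differed: the callus and the root/leaf microarrays shared a form that the root self-self microarrays did not. That form was read as a slide series, which no label names. For these reasons each difference was computed again from red channels alone, and again with root taken from the red channels of the 2 root/leaf microarrays. The latter put callus and root in 1 such series, but those red channels had been dye-normalized with leaf in green. The image files of callus and of all root microarrays were processed on different days, so that day and tissue cannot be told apart.

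Callus and root differed widely. In limma with Benjamini-Hochberg adjustment, 10189 probes (52.3% of those tested) passed the adjusted p of 0.05. Of these, 4708 (24.1%) were higher in callus and 5481 (28.1%) higher in root. Differences over 2-fold were found for 2904 probes higher in callus (14.9%) and 4291 higher in root (22.0%). With root from the root/leaf microarrays 8034 probes passed, and 6460 probes (33.1%) passed with the same direction in all 3 fits, 3345 of them higher in callus (17.2%) and 3115 higher in root (16.0%). The 4 callus and 4 root channels did not overlap for 10170 of the probes that passed (52.2% of those tested). Among the 6460 probes, 281 were over 8-fold higher in callus and 421 over 8-fold higher in root. The callus and root differences of the main fit and of the fit with the root/leaf microarrays share the callus microarrays, and 12 probes passed in both with opposite direction.

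The gene at the top of the callus side was XTH11, a xyloglucan endotransglucosylase/hydrolase of the kind that cuts and rejoins cell wall xyloglucan. Its levels were 3.0 and 2.83 on the callus microarrays and -5.75 and -5.57 on the root microarrays, a difference of 8.57 ± 0.20 (SE, n = 2 microarrays per tissue, limma adjusted p = 1.06e-05). The root channels of the root/leaf microarrays read -6.49 and -4.74, also below both callus values. PNP-A, a small secreted natriuretic peptide, was at 2.75 and 2.45 in callus and -5.03 and -5.45 in root. GSTU11, a glutathione transferase of the tau class, had 3.74 and 3.60 in callus against -3.72 and -3.40 in root. The tissues did not overlap for any of these genes, but the rule that named them required this.

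The naming rule left out genes with a saturated spot in the brighter tissue, which removed BGLU28 on the callus side and DR4 and GAMMA-TIP on the root side. The 15 genes it named on the callus side were 65.5-fold or more above root. They held 2 xyloglucan endotransglucosylases (XTH11 and XTH24), 2 glutathione transferases (GSTU11 and GSTU4), the carboxypeptidase scpl14, the U-box protein PUB54, the malate channel ALMT1 and 7 genes with no symbol. ALMT1, which releases malate from root cells, was at 3.72 and 3.60 in callus and -2.79 and -2.58 in root. The rule required a pass in the main and red-channel fits, and all 15 were also above root with root from the root/leaf microarrays. In all 15 both callus values were above the 6 values of the inflorescence, leaf and root self-self microarrays, which the rule had required for root only. XTH24, for example, was at 5.05 and 5.13 in callus, 2.64 and 2.42 in leaf, 0.29 and 0.42 in inflorescence and -1.61 and -1.86 in root.

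**Figure D1:**
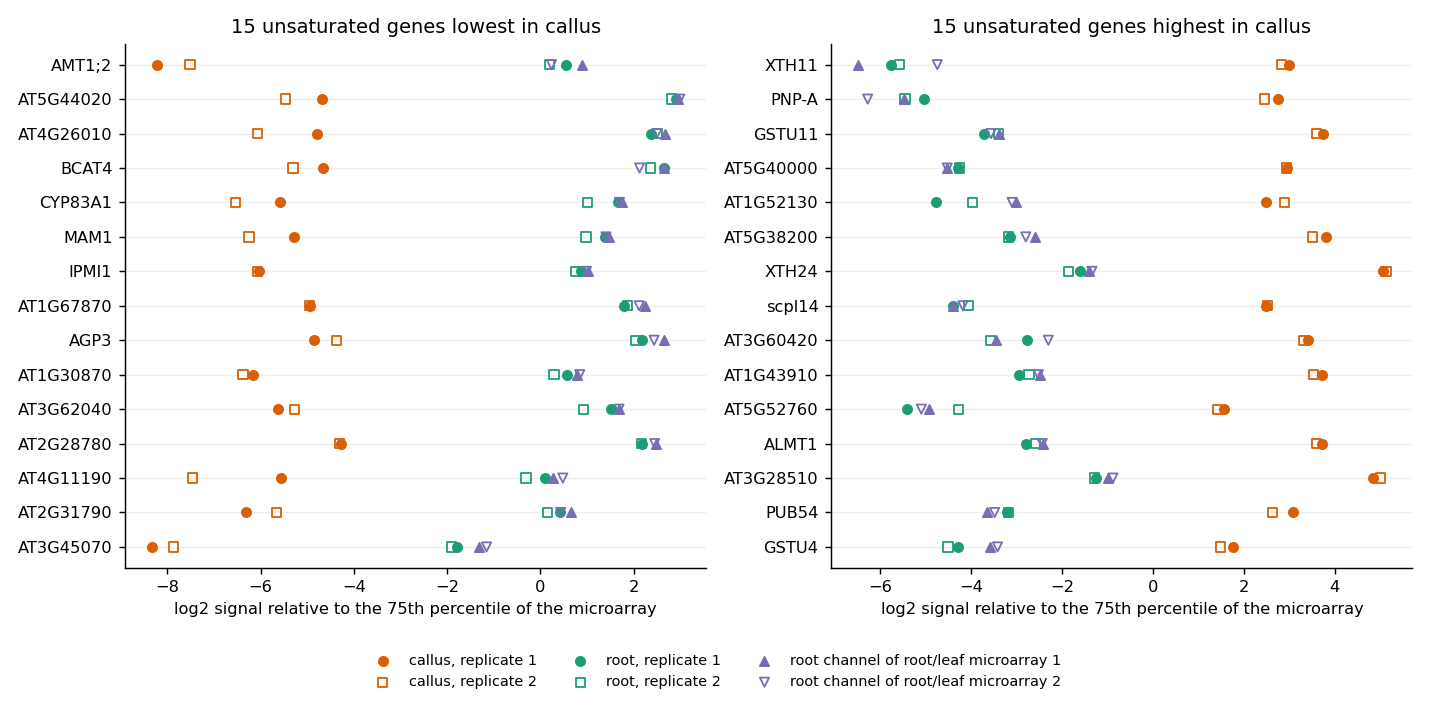
Levels of the 15 genes named on the root side (left) and the 15 named on the callus side (right), genes with saturated spots in the brighter tissue left out, as log2 signal relative to the 75th percentile of each microarray. Each point is 1 microarray: callus (orange), root self-self (green) and the root channel of the root/leaf microarrays (purple), and for each gene the 2 callus points lie apart from all 4 root points, as for XTH11 with 3.0 and 2.83 in callus. The naming rule required this for the root self-self points.

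At the other end, AMT1;2, a high-affinity ammonium transporter of the root, was at 0.54 and 0.20 in root. On the callus microarrays its 4 spots were not well above background, so it entered the test through root alone and no p-value is given. Against the callus floor, callus was an estimated 149-fold lower. Such an estimate sets the mean of the brighter tissue against the lowest level of any probe well above background on the dimmer microarrays. It is no strict limit, since that level comes from other probes. DR4, described on the array as a protease inhibitor and left out by the rule since 1 of its 4 root spots was saturated, was at -4.76 and -5.08 in callus and 3.83 and 4.47 in root. Of the 15 genes the rule named on the root side, AT3G45070 (described on the array as sulfotransferase-like) was also not well above background in any callus spot. By the same estimate it was 31.9-fold lower in callus, and the others were lower by 77.6-fold or more. They held AT5G44020, described as vegetative storage protein-like, with -4.69 and -5.47 in callus and 2.91 and 2.82 in root. They also held 2 peroxidases, AT4G26010 and AT1G30870, the arabinogalactan protein AGP3, and 5 genes of glucosinolate synthesis. In 11 of the 15, both callus values were below all 6 values of the other self-self microarrays, which the rule had required for root only.

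Those 5 genes led to a wider look at glucosinolate synthesis, as a list drawn up after the extreme genes had been seen, so that it gives a description and no independent evidence. Of 33 tested members, 19 (57.6%, against 28.1% of all probes) were lower in callus, 1 was higher and 13 did not pass. The median difference was -1.62, against -0.11 over all probes. The genes lowest in callus belonged to the aliphatic branch. BCAT4, the aminotransferase that opens methionine chain elongation, was at -4.67 and -5.31 in callus and 2.66 and 2.36 in root (-7.50 ± 0.27). MAM1, the methylthioalkylmalate synthase of that cycle, was at -5.28 and -6.25 in callus against 1.39 and 0.98 in root. CYP83A1, which acts after the cycle on aliphatic aldoximes, was at -5.59 and -6.54 against 1.67 and 1.01. IPMI1, IMD1 and MAM3 (listed as IMS2), the isomerase, dehydrogenase and further synthase of the cycle, differed by -6.86, -5.94 and -6.20. AT2G31790, a UDP-glycosyltransferase on the array, differed by -6.28. No callus value of these 7 genes overlapped a root value on any microarray, which the naming rule had required of 5 of them. Such a lack of overlap held for 10170 of the 10189 probes that passed.

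The regulators split in the same list. MYB28 and MYB29, activators of the aliphatic branch, were lower in callus by -3.33 ± 0.30 and -1.62 ± 0.27. MYB34, an activator of the indole branch, was at -1.92 and -1.81 in callus and 1.09 and 1.18 in root. MYB51, another indole activator, went the other way: -0.32 and -0.12 in callus against -2.36 and -2.49 in root. The indole pathway enzymes CYP79B2 and CYP83B1 differed by -0.33 (adjusted p = 0.093) and 0.22 (adjusted p = 0.35), which did not pass. SUR1, UGT74B1 and SOT17, enzymes that serve the core of the pathway, differed by 0.12, 0.56 and 0.04, and did not pass. Some of the genes lowest in callus were low in inflorescence too: BCAT4 was at -4.06 and -4.00 there, and at 2.13 and 1.64 in leaf. MAM1 was at -3.35 and -3.62 in inflorescence, and IPMI1 at -4.01 and -4.07. Others were not as low there, with CYP83A1 at -1.86 and -1.92 and AT2G31790 at 0.09 and 0.19, the latter near its root values. TGG1, a myrosinase that hydrolyses glucosinolates, was at 0.08 on root replicate 1 and -5.02 on root replicate 2, and root replicate 2 lay between the callus values of -6.92 and -4.56.

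Genes of sulfate assimilation and of the response to sulfur deficiency were high in callus. This list too was drawn up after BGLU28 and SDI1 had been seen among the largest differences, and is a description. Of 15 tested members, 12 (80.0%, against 24.1% of all probes) were higher in callus and 2 lower, with a median of 2.60. BGLU28, a beta-glucosidase induced by sulfur deficiency, was at 5.29 and 5.72 in callus, where all 4 spots were saturated, and at -1.77 and -1.61 in root, so callus was at least 147-fold higher (adjusted p of the measured difference, 2.20e-05). SDI1 (listed as ATSDI1), known to restrain aliphatic glucosinolate synthesis through MYB28 when sulfur is short, was at 3.26 and 3.0 in callus and -2.68 and -3.11 in root. LSU1, a small protein named for its response to low sulfur, was at 0.04 and -0.22 against -5.85 and -5.29. For each of these 3 genes inflorescence and leaf also lay below callus, with SDI1 at -0.24 and -0.44 in inflorescence and -2.86 and -3.23 in leaf.

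The adenosine phosphosulfate reductases APR1, APR2 and APR3, which reduce activated sulfate, were higher in callus by 2.47, 2.28 and 2.89. GGCT2;1 (listed as AT5G26220), which takes part in glutathione breakdown, was higher by 3.08, and SHM7, a serine hydroxymethyltransferase, by 2.60. The sulfate transporters differed among themselves. SULTR4;1 and SULTR4;2, which release sulfate from the vacuole, were higher in callus by 1.74 and 2.94, and SULTR2;1, a low-affinity transporter of vascular tissue, by 3.16. SULTR1;1, a root uptake transporter that is itself induced by sulfur deficiency, was lower in callus, at -3.46 and -2.83 against -0.31 and -0.23. SULTR1;2, the main root uptake transporter, differed by 0.69 (adjusted p = 0.029) and by 0.20 with root from the root/leaf microarrays (adjusted p = 0.34). SLIM1 (listed as EIL3), the transcription factor that controls much of the sulfur deficiency response, was lower in callus, with 1.34 and 0.63 against 2.93 and 3.04 in root.

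**Figure D2:**
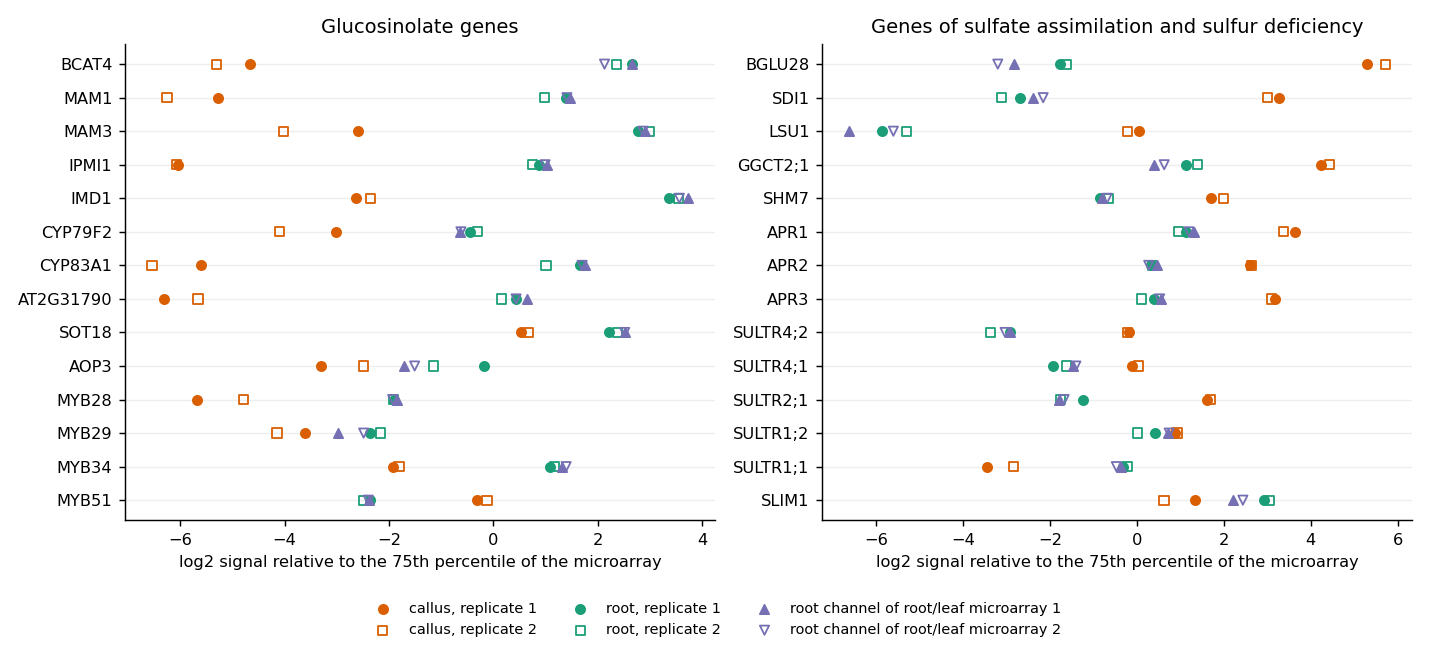
Levels of glucosinolate genes (left) and of genes of sulfate assimilation and sulfur deficiency (right) on each microarray, as log2 signal relative to the 75th percentile; symbols as labelled. Callus (orange) lies far left of root for BCAT4 (difference -7.50) and far right of it for SDI1 (6.02), while SULTR1;1 and SLIM1 lie left of root among the sulfur genes.

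Genes of the root hair were low in callus. Of 27 tested members of this marker list, 19 (70.4%, against 28.1% of all probes) were lower in callus, 1 was higher and 7 did not pass, and the median difference was -2.24. AGP3 was lowest, at -4.85 and -4.38 in callus and 2.18 and 2.05 in root. RHS19, a root hair specific peroxidase, was at -4.77 and -6.40 against 0.52 and 0.44. COW1, a lipid transfer protein needed for hair growth, was at -4.95 and -4.71 against -0.28 and -0.29, and RHD2, the NADPH oxidase of the hair tip, at -4.53 and -4.42 against -1.34 and -0.99. RSL4, the transcription factor that drives hair growth, had -3.72 and -2.49 in callus and -1.48 and -1.46 in root and did not pass (adjusted p = 0.088). In all 3 fits 18 of the 27 were lower in callus.

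Transporters for ions were mostly lower in callus: 22 of 40 (55.0%, against 28.1% of all probes) were lower and 7 (17.5%, against 24.1%) higher. Their median was -0.98. NRT2.1, the high-affinity nitrate transporter, was at -4.55 and -5.62 in callus and -0.11 and 0.07 in root. PHT1;2, a phosphate transporter, was at -3.44 and -3.20 against 1.95 and 1.81, while its relative PHT1;4 ran in the opposite direction, with 2.23 and 2.20 in callus against -0.91 and -0.94 in root. AMT1;3, a further ammonium transporter, was lower by -4.56 ± 0.50 and SKOR, the channel that loads potassium into xylem, by -3.43 ± 0.26. The iron transporter IRT1 differed by -0.45 (adjusted p = 0.18) and did not pass. Aquaporins followed the same direction, with 17 of 26 (65.4%, against 28.1% of all probes) lower in callus and 1 higher. GAMMA-TIP, a water channel of the vacuole membrane, was at -2.28 and -3.72 in callus and 4.33 and 4.14 in root (-7.24 ± 0.43, with 1 of 4 root spots saturated), and NIP1;2, an aluminium-malate transporter of the same superfamily, was the one higher in callus, by 3.62.

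The inner root tissues were represented by barrier and wall genes. Of 19 members of the endodermis, suberin and Casparian strip list, 12 (63.2%, against 28.1% of all probes) were lower in callus and 2 higher. PER64, the peroxidase of the Casparian strip, was at -3.56 and -3.18 in callus against 0.70 and 0.60 in root. CYP86A1, which makes suberin monomers, was at -3.87 and -2.74 against 0.40 and 0.08. CASP1, a scaffold protein of the strip, was lower by -2.13. Regulators in the list differed among themselves. MYB41 and MYB39, regulators of suberin, were lower in callus by -1.94 and -1.47, MYB39 not with root from the root/leaf microarrays. SCR differed by -0.36 (adjusted p = 0.085), MYB36 by -0.11 (adjusted p = 0.81), and SHR was higher in callus by 0.86 (adjusted p = 0.018). Xylem and secondary wall genes were lower in callus in 18 of 28 cases (64.3%, against 28.1% of all probes) and higher in 2. Their median was -1.55. XCP1 and XCP2, proteases of dying xylem cells, were lower by -5.33 ± 0.22 and -4.42 ± 0.20, and XCP1 stood at -4.47 and -4.94 in callus against 0.52 and 0.72 in root. VND7, the master regulator of vessel fate, differed by -0.04 and did not pass (adjusted p = 0.89). Among phloem genes 6 of 17 (35.3%, against 28.1% of all probes) were lower in callus, led by the lectin PP2-A1 (-3.17). Another 3 (17.6%, against 24.1%) were higher, led by the proton pump AHA3 (1.93), so that both shares lay near those over all probes.

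Root patterning genes split in 2 directions, with 11 of 27 (40.7%, against 28.1% of all probes) lower and 7 (25.9%, near the 24.1% of all probes) higher in callus. The stem cell regulators PLT1 and PLT2 were higher in callus: PLT1 stood at -0.84 and -0.95 against -3.16 and -3.04 in root, and PLT2 differed by 1.59. LRP1, a gene of lateral root primordia, was at 2.88 and 2.87 in callus and -0.50 and -0.66 in root. Others were lower in callus, among them TMO5 (listed as BHLH32), which acts in young vascular cells (-3.72), MGP, which acts in the ground tissue (-3.45), and GL2, which marks hairless epidermal cells (-1.21). No overlap between the tissues was seen for these 6 genes, but the same held for 10170 of the 10189 probes that passed. CPC, which promotes hair cell fate, was higher in callus by 1.29, and the epidermal and ground tissue regulators WER (-0.50), JKD (-0.00) and TTG1 (0.04) did not pass.

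Cell wall families were lower in callus as families but held strong exceptions. Expansins, which loosen walls, were lower in 14 of 28 cases, 9 of them in all 3 fits, with EXPA10 the member higher in callus by 1.26. Extensins and proline-rich proteins were lower in 32 of 65 (49.2%) and higher in 4. Arabinogalactan proteins were lower in 15 of 29 and higher in 5, with AGP13 at -5.64 and AGP10 at 3.26. Xyloglucan-modifying enzymes were lower in 18 of 37 (48.6%) and higher in 7, with XTH11 at 8.57, XTH24 at 6.82, XTR6 at 5.31 and TCH4 at 5.09 on the callus side and XTH31 at -5.24 and XTH14 at -4.42 on the root side. TCH4, a touch-induced xyloglucan endotransglucosylase, stood at 3.0 and 2.97 in callus and -1.90 and -2.33 in root.

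Class III peroxidases also ran in both directions. Of 82 tested, 36 (43.9%, against 28.1% of all probes) were lower and 14 (17.1%, against 24.1%) higher in callus. AT4G26010 differed by -7.87, with 1 of 4 callus spots not well above background, and 9 of the family differed by -4.35 or less. AT1G71695, at 3.80 and 3.96 in callus and -0.38 and -0.90 in root, and PRX52, at -1.45 and -1.60 against -5.43 and -5.64, were the 2 furthest on the callus side. Major latex and germin-like proteins were lower in 22 of 39 (56.4%) and chitinases and glucanases in 36 of 74 (48.6%). Cytochromes P450 were lower in 87 of 212 (41.0%) and higher in 35 (16.5%, against 24.1%). In all 3 fits 17, 22 and 51 of these families were lower, in that order, against 16.0% of all probes. In the P450 family CYP91A2 (5.29) and CYP81D8 (5.03) lay furthest to the callus side and CYP83A1 (-7.40) furthest to the root side.

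**Figure D3:**
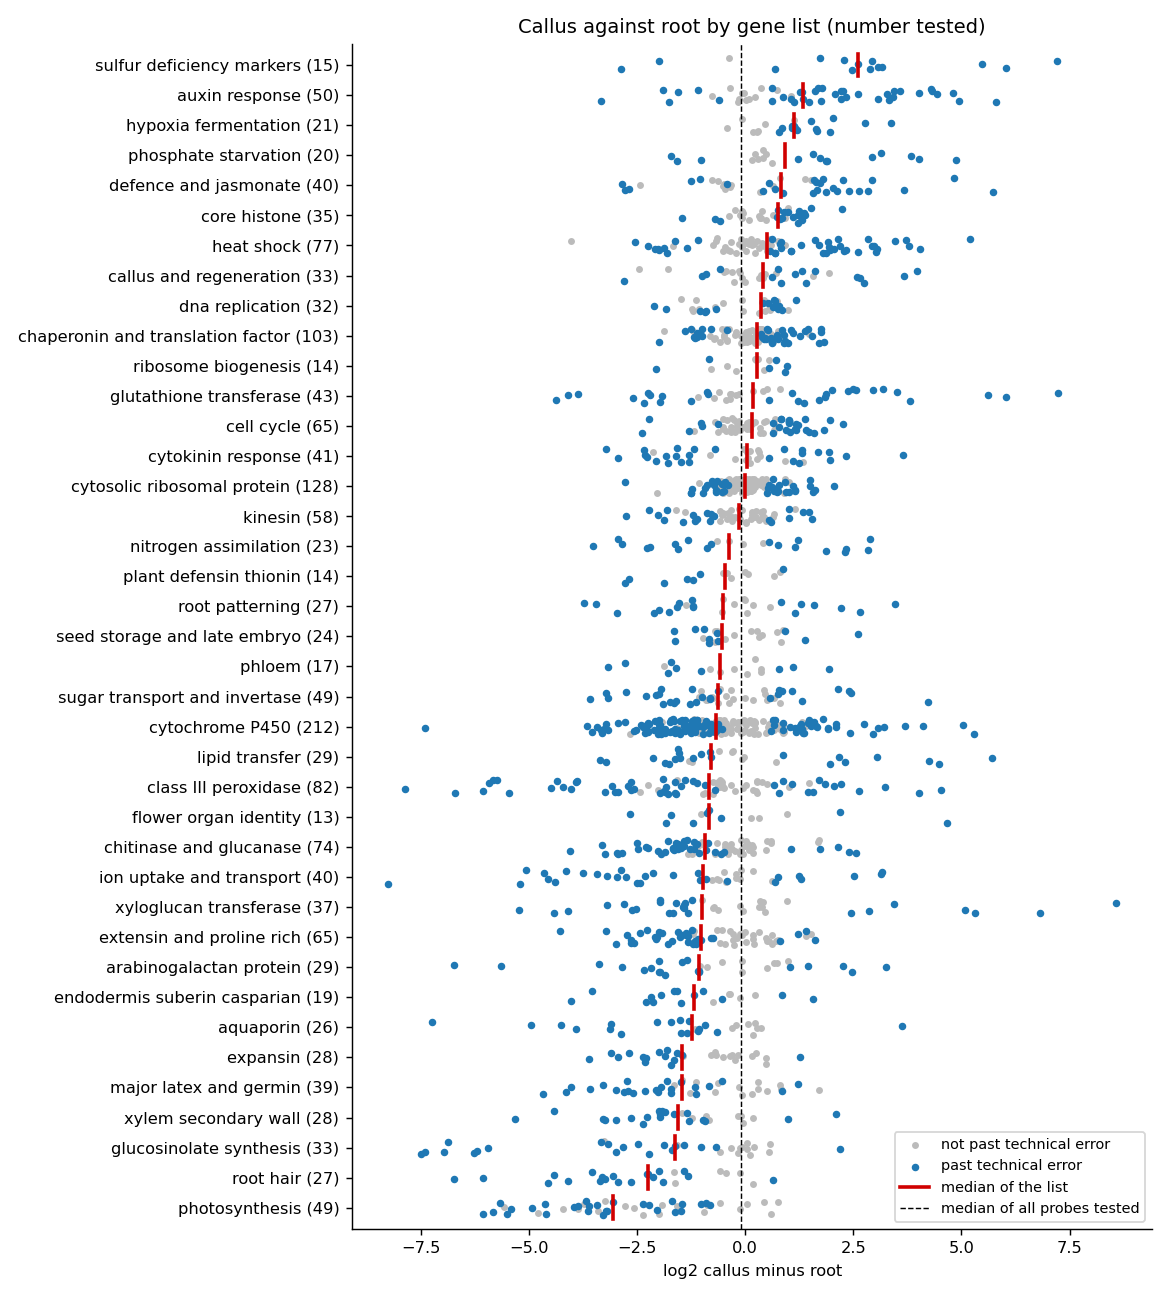
Difference between callus and root (log2, callus minus root) of every tested member of each gene list, with the number tested in brackets; blue points passed technical error (limma adjusted p under 0.05), grey points did not, the red bar is the median of the list and the dashed line that of all probes tested (-0.11). Sulfur deficiency (median 2.60) and auxin response (1.33) genes lie to the right of the line, and root hair (-2.24) and photosynthesis (-3.05) genes to its left.

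Auxin response genes had the highest median of the 37 lists that were not drawn up from the extremes. Of 50 tested members, 32 (64.0%, against 24.1% of all probes) were higher in callus and 6 lower, with a median of 1.33. GH3 enzymes, which conjugate auxin to amino acids and are induced by it, led the group. GH3.6 (listed as DFL1) was at 4.22 and 4.39 in callus and -1.80 and -1.19 in root (5.80 ± 0.24). GH3.2 (listed as BRU6) was at 1.59 and 1.44 against -3.49 and -3.38. GH3.3 was saturated in all 4 callus spots and was at least 19.9-fold higher in callus. Aux/IAA repressors that auxin induces moved alike: IAA19 at 3.07 and 2.83 against -1.69 and -2.04, IAA5 at 1.98 and 1.79 against -2.46 and -2.39, and IAA1 higher by 4.02. IAA28, an Aux/IAA that acts in root founder cells and is not induced by auxin, was lower in callus by -1.90.

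The transport side of auxin was mixed. The efflux carriers PIN7 and PIN3 were higher in callus by 3.29 and 2.26. PIN5, a carrier of the endoplasmic reticulum, was lower in callus by -3.34 ± 0.72, with callus values of -4.57 and -7.02, and PIN2 (listed as EIR1), which carries auxin away from the root tip, by -0.60. The uptake carrier AUX1 (-0.17, adjusted p = 0.575) and the receptor TIR1 (-0.14, adjusted p = 0.60) did not pass. PID, a kinase that directs PIN proteins, was higher by 3.43, and ACS8, an auxin-induced enzyme of ethylene synthesis, by 3.32.

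Cytokinin genes divided, with 11 of 41 (26.8%, near the 24.1% of all probes) higher and 15 (36.6%, against 28.1%) lower in callus. Their median of 0.05 changed sign between processing alternatives. ARR5 (listed as RR5), a type-A response regulator that cytokinin induces, was at 1.12 and 1.18 in callus against -1.08 and -1.30 in root, and CKX3, which degrades cytokinin, was higher in callus by 3.64. Among genes that make cytokinin, the isopentenyltransferases IPT3 and IPT5 were lower in callus by -2.26 and -2.31, and the hydroxylases CYP735A1 and CYP735A2, which make trans-zeatin, by -3.23 and -2.94. IPT3 stood at -3.92 and -3.67 in callus and -1.71 and -1.36 in root.

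Of 33 callus and regeneration genes, 12 (36.4%, against 24.1% of all probes) were higher in callus and 4 (12.1%, against 28.1%) lower. Their median was 0.41. RAP2.6L, an AP2/ERF factor of shoot regeneration and wound healing, was at 0.43 and -0.00 in callus and -3.70 and -3.84 in root. The homeobox genes KNAT1 and KNAT6 were higher by 3.67 and 2.75, and BBM, an inducer of somatic embryos, by 2.65 (1.04 and 1.32 against -1.49 and -1.44). AGL15 was higher by 2.59 and by 1.52 without root replicate 1, whose value of -5.03 was below the -2.90 of replicate 2. The lateral root factor LBD16, through which callus forms, differed by 1.94 and did not pass (adjusted p = 0.086). The shoot meristem genes WUS and STM were lower in callus, by -0.91 and -1.0, and with root from the root/leaf microarrays differed by 0.02 and -0.37, neither of which passed. CUC1, a boundary gene of the shoot, was lower by -2.80.

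Of 65 cell cycle genes, 23 (35.4%, against 24.1% of all probes) were higher in callus, 6 (9.23%, against 28.1%) lower and 36 did not pass, with a median of 0.17. CYCD3;1, the D-type cyclin that cytokinin induces, was at 1.19 and 1.28 in callus and -0.88 and -1.19 in root. CYCA2;4 was higher by 1.96, the ribonucleotide reductase RNR2A by 1.81 and the mitotic kinase CDKB2;2 by 1.58. CYCD1;1 (-2.39), CYCA2;1 (-2.23) and SIM, an inhibitor that promotes endoreduplication (-1.31), were lower in callus. Core histones were higher in 17 of 35 cases (48.6%, against 24.1%) and lower in 3 (8.57%, against 28.1%), with HTA9 highest at 2.23. DNA replication proteins were higher in 9 of 32 (28.1%, near the share over all probes) and lower in 6 (18.8%). Kinesins were higher in 7 of 58 (12.1%) and lower in 13 (22.4%), fewer in each direction than over all probes. Cytosolic ribosomal proteins were higher in 21 of 128 (16.4%) and lower in 18 (14.1%), fewer in each direction than over all probes.

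Of 40 defence and jasmonate genes, 21 (52.5%, against 24.1% of all probes) were higher in callus and 6 (15%, against 28.1%) lower. Their median was 0.83, and genes of salicylic acid synthesis lay furthest to the callus side among those described here. SID2 (listed as EDS16), the isochorismate synthase that makes salicylic acid, was at 2.02 and 1.91 in callus and -3.45 and -4.09 in root (5.73 ± 0.24, adjusted p = 2.90e-05). EDS5, which exports its precursor from the plastid, was at 3.0 and 2.79 against -1.78 and -2.08. PAD4, a regulator upstream of salicylic acid, was at 3.56 and 3.50 against -0.07 and -0.21. SID2 was also lower in inflorescence (-4.38 and -4.31) and leaf (-2.72 and -2.78) than in callus. The pathogenesis-related genes did not follow: PR1 differed by -0.35 (adjusted p = 0.63), and PR2 (listed as BGL2) and PR5 were lower in callus by -2.84 and -1.25, neither of which passed with root from the root/leaf microarrays. The lipoxygenase LOX1 (2.94) and the repressor of jasmonate response JAZ1 (2.62) were higher in callus, but the defensin PDF1.2, a jasmonate and ethylene marker, was lower by -2.69. Across the defensin and thionin family 6 of 14 (42.9%, against 28.1% of all probes) were lower and 1 (7.14%, against 24.1%) was higher.

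**Figure D4:**
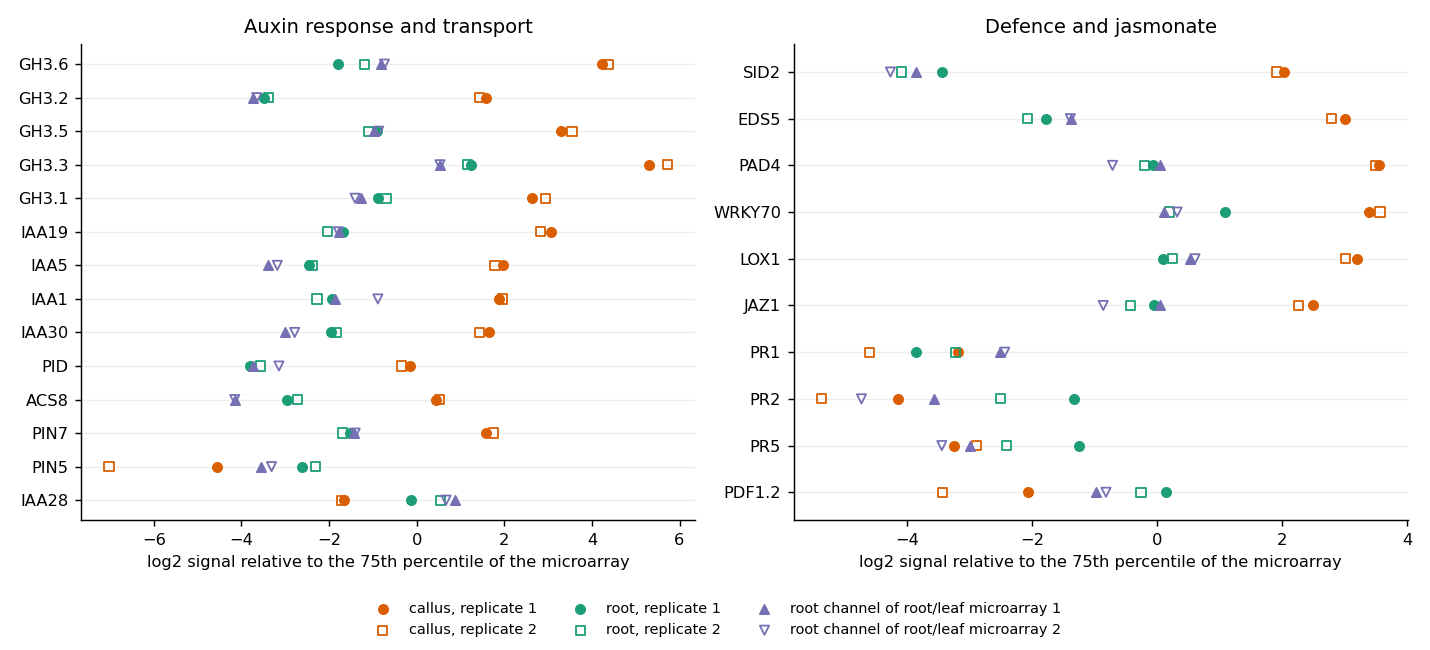
Levels of auxin genes (left) and of defence and jasmonate genes (right) on each microarray, as log2 signal relative to the 75th percentile; symbols as labelled. The 2 callus points lie right of the root points from GH3.6 to PIN7 and from SID2 to JAZ1, and left of them for PIN5, IAA28, PR2 and PDF1.2 on the self-self microarrays.

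Stress and detoxification genes were read against the shares over all probes, 24.1% higher and 28.1% lower in callus. Glutathione transferases were higher in 18 of 43 (41.9%) and lower in 12 (27.9%), with a median of 0.17 that changed sign between processing alternatives, spanning GSTU11 at 7.23 and GSTU4 at 6.03 to GSTF14 at -4.37. Heat shock proteins and factors were higher in 33 of 77 (42.9%) and lower in 10, led by the mitochondrial HSP23.6-MITO, at -0.32 and -0.02 in callus and -6.40 and -4.32 in root. Of 21 hypoxia and fermentation genes, 14 (66.7%) were higher in callus and 0 lower (7 did not pass). HRE2 (listed as ERF71), an ethylene response factor of the low oxygen response, was at 1.14 and 0.80 against -2.38 and -2.40. The core enzymes moved less, with ADH1 higher by 1.66 and the pyruvate decarboxylase PDC1 (listed as AT4G33070) by 1.08, and HRE1 differed by -0.41 without passing. Chaperonins and translation factors were higher in 30 of 103 (29.1%) and lower in 11 (10.7%), and ribosome biogenesis proteins higher in 4 of 14 (28.6%) and lower in 2, so that the shares on the callus side lay near that over all probes.

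Of 20 phosphate starvation genes, 10 (50%, against 24.1% of all probes) were higher in callus and 3 (15%, against 28.1%) lower, with a median of 0.92. The 3 lower ones were NPC5 (-1.71), PHT1;8 (-1.58) and PHT1;9 (-1.02). SPX1, a phosphate sensor that rises when phosphate is short, was at 5.15 and 5.24 in callus and 1.31 and 1.06 in root. RNS1, a secreted ribonuclease, was at 1.45 and 1.13 against -3.20 and -3.95, and SQD1, which makes sulfolipid, at 3.56 and 3.31 against -0.36 and -0.46. The acid phosphatase PAP17 was higher by 2.93. Nitrogen assimilation genes divided evenly, 9 of 23 (39.1%) higher and 10 (43.5%) lower. The nitrate reductases NIA1 and NIA2 were higher in callus, NIA1 at 3.91 and 3.81 against 1.01 and 0.91, and both were on the callus side in the 3 fits. The plastid glutamine synthetase GS2 was lower, at -2.23 and -1.99 against 1.98 and 0.85. On root replicate 1 GS2 read 2.42 in green and 1.34 in red, and on each leaf microarray 4.62. Its difference was -3.15 from red channels alone and -3.26 with root from the root/leaf microarrays. Sugar transporters and invertases were higher in 10 of 49 (20.4%) and lower in 19 (38.8%), with the hexose transporter MSS1 higher by 4.23 and STP11 lower by -3.59. Lipid transfer proteins were higher in 8 of 29 (27.6%, near the share over all probes) and lower in 13 (44.8%), from LP1 at 5.71 to AT1G05450 at -3.35.

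Markers of other organs were read as a check on the tissues. Of 13 flower organ genes, 2 (15.4%, against 24.1% of all probes) were higher in callus and 7 (53.8%, against 28.1%) lower. Only 2 of those 7 were lower in all 3 fits. With root from the root/leaf microarrays CAL, AG, SEP4 and AP2 did not pass and SUP differed by 0.13 in place of -2.66. PI was higher in callus. PI, a MADS-box gene that with AP3 specifies petals and stamens, was at 2.65 and 2.32 in callus, -2.24 and -2.11 in root, -2.22 and -2.40 in leaf and 3.52 and 3.24 in inflorescence. Its difference was 4.66 ± 0.18 (adjusted p = 2.61e-05) and 4.98 with root from the root/leaf microarrays. AP3, its partner, was at -3.26 and -3.01 in callus against 2.10 and 2.33 in inflorescence, and AG and SEP3 were likewise low in callus: AG was at -5.03 and -4.61 against -0.23 and -0.25 in inflorescence, and SEP3 at -4.18 and -3.94 against 2.68 and 2.71. PI in callus was thus not accompanied by AP3, AG or SEP3. SHP1 was higher in callus by 2.20, with root values of -1.31 and -3.42. Its callus values of -0.15 and -0.19 were near those of inflorescence, -0.21 and 0.04. Of 24 seed storage and late embryo genes, 3 (12.5%, against 24.1% of all probes) were higher in callus, EM1 most (2.61). Another 8 (33.3%, against 28.1%) were lower. Of those 8, 2 were lower in all 3 fits.

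Photosynthesis genes were lower in callus in 28 of 49 cases (57.1%, against 28.1% of all probes) and higher in 0. Their median was -3.05, but this result followed root replicate 1. The median level of the 49 genes was 1.57 in the green and -0.14 in the red channel of root replicate 1, and -2.44 and -2.38 in those of root replicate 2. The 4 callus channels read between -3.88 and -3.47, the root channels of the root/leaf microarrays -1.03 and -0.96, and leaf 4.18 and 4.08. Both channels of replicate 1 were thus above all other root channels. PSBR, a photosystem II protein, was at -4.74 and -4.73 in callus, 4.27 on root replicate 1, -1.60 on root replicate 2, and 0.77 and 0.84 in the root channels of the root/leaf microarrays. Without root replicate 1, 33 of the 49 were lower in callus and 3 higher with a median of -1.27, and with root from the root/leaf microarrays the median was -2.31. Callus was thus below root in each reading, by an amount that the root reading set. How far leaf RNA contributed to any root reading was not tested.

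**Figure D5:**
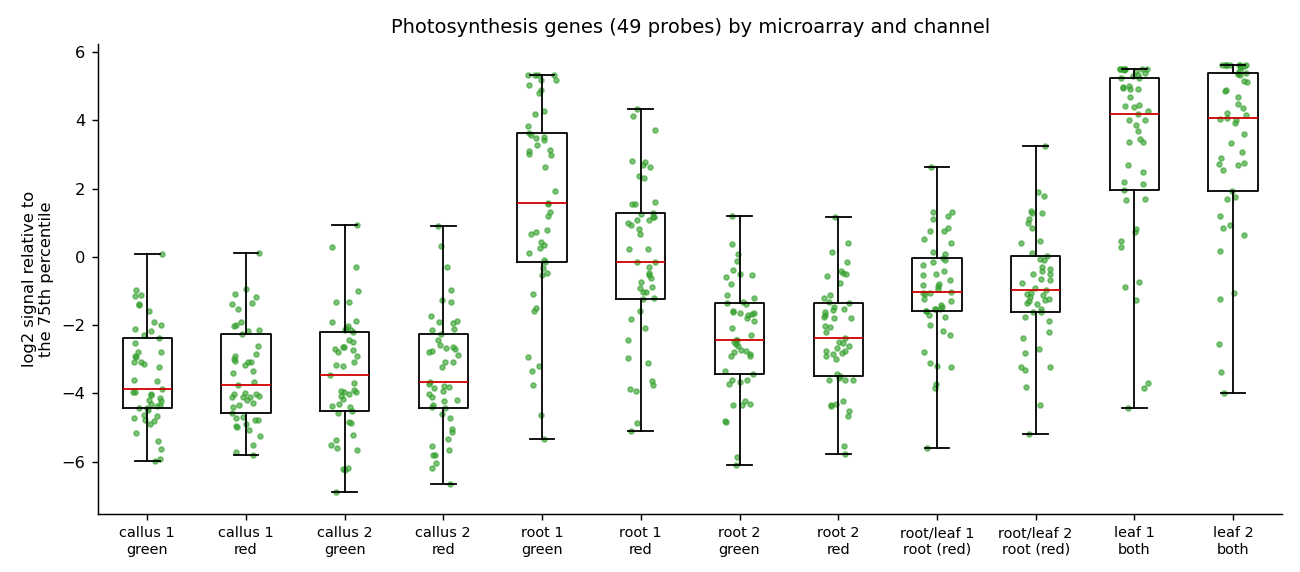
Levels of the 49 tested photosynthesis genes (points) in each channel, as log2 signal relative to the 75th percentile; the box spans the quartiles, the red line is the median and the whiskers reach the extremes, and leaf is the mean of both channels. Root replicate 1 stands above root replicate 2 in green (median 1.57 against -2.44) and in red (-0.14 against -2.38), and callus lies lowest.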

How the data were processed

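The deposited Agilent files held 1 microarray each. Per the file headers, the authors' Feature Extraction software wrote a background-subtracted, dye-normalized processed signal intensity per spot and channel, and the log10 of red over green, which was not used for the differences here (the labels name version 8.1). Genome build and alignment do not apply to these values. Green and red intensities were averaged, scaled to the 75th percentile of the non-control probes and taken to log2. Probes flagged as outliers on any of the 8 self-self microarrays (1828) or not well above background in either tissue (173) were left out. Callus minus root was tested in limma 3.58.1 (R 4.3.3) with 1 mean per tissue over those 8 microarrays and a trended variance, with Benjamini-Hochberg adjustment over 19499 probes and a threshold of 0.05. The step was tested on simulated data. No count of molecules underlies an intensity, and the 2 microarrays per tissue limit the precision.

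Genes were named through RefSeq locus tags. The text names the 15 highest and 15 lowest genes that passed in the main and red-channel fits with no overlap of channels, with the brighter tissue well above background and unsaturated in all its spots, the 4 largest differences per list, and members with defining roles. Further list members were chosen after their values were seen. The members and the lists were chosen with earlier results of these data known, and 2 lists (glucosinolate synthesis, sulfur deficiency) were added after the values were seen. Replicate numbers were not taken as pairs. No sequences are shown. Some list members are not reported here.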

Additional observations from a re-analysis of the deposited data

How the results depend on the processing

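Across the processing alternatives, 7355 to 10505 probes passed, against 10189. Leaving out a microarray gave 7355 to 9329, and 6259 to 7244 of over 2-fold against 7195. The lists with a median above that of all probes numbered 13 or 14 of 37 in every alternative run, leaving out a microarray included (13 to 14). A stricter rule chosen after seeing the data, the same call in the main fit, in red channels alone and with root from the root/leaf microarrays, left 6460. With the replicate number as a block 10265 probes passed; replicate deviations of callus and root correlated at 0.03, so the numbers do not pair the samples. With the slide series as a random block 8273 passed.

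The median of all probes was -0.11 and moved to -0.25 with arrays scaled to their sum, and the share of calls higher in callus from 46.2% to 38.6% (sum), 51.9% (median), 55.0% (quantile) and 54.8% (normexp and quantile). The list medians of cytokinin, glutathione transferase, kinesin, defensin and ribosomal protein genes changed sign between alternatives. For the 170 genes named by rule, 3284 of 3378 alternative values kept direction and call, 91 no longer passed and 3 changed direction, all with root from the root/leaf microarrays: SESA4 (0.029), SUP (0.128) and LCR72 (0.399). An Affymetrix comparison was not run, since its probe sets could not be joined to genes with the tables used here. Dim probes limit the values least certain here: 20 tested probes were not above background on any callus microarray and 4 on any root microarray.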
